A study of Mus musculus with 4 samples.

Results

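The Wnt/β-catenin pathway was followed in day 12 cells labelled as neural precursor cells (NPCs) through 10 genes that were listed by name: the target genes *Axin2*, *Nkd1* and *Sp5*, the 4 TCF/LEF factors *Lef1*, *Tcf7*, *Tcf7l1* and *Tcf7l2*, the secreted antagonists *Sfrp1* and *Sfrp2*, and the ligand *Wnt7b*. All 10 were found among the 55602 genes of the bulk table by their symbols, and all passed the filter on low counts. The samples were 2 wild-type cultures of JB1, a male hybrid embryonic stem cell (ESC) line whose maternal genome is JF1 and paternal genome C57BL/6 (B6), and 2 cultures of a *Zfp57*-/- line derived from JB1. Both genotypes were kept as ESCs in medium with 3 µM CHIR99021, an inhibitor of Gsk3, then differentiated in DDM medium with 1 µM cyclopamine, a blocker of hedgehog signalling, from day 2 to day 10, and harvested at day 12. The labels name both genotypes NPCs, while the paper calls the *Zfp57*-/- cells neural precursor-like and only partially differentiated. Each genotype was represented by a single line, so that the line and the genotype cannot be told apart, and p-values measure the spread between 2 cultures of a line.

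In the Wnt/β-catenin pathway, a secreted Wnt ligand binds a Frizzled receptor and an Lrp5 or Lrp6 co-receptor, which stops the destruction complex of Axin, Apc and Gsk3 from marking β-catenin for degradation. β-catenin then enters the nucleus, binds TCF/LEF factors and activates their target genes, several of which, such as *Axin2* and *Nkd1*, encode inhibitors of the same pathway. In the embryonic forebrain, Wnt ligands made by the cortical hem and the roof plate pattern the dorsal side, while in ESCs inhibition of Gsk3 sustains self-renewal.

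TCF/LEF factors bind a short sequence with CTTTG at its core. It was searched on both strands in the 250 bases before the start of transcription, taken from RefSeq for GRCm38.p6, which held such windows for 8 of the 10 genes. The windows of 3 genes are shown because they belong to a target with several copies of the core, a target with none and a factor that is itself a target. Capitals mark CTTTG or its reverse complement CAAAG, and each window ends at the base before the start. The windows are chr2:70474673-70474922 for *Sp5*, chr11:108920099-108920348 for *Axin2* and chr3:131110047-131110296 for *Lef1*, all on the plus strand.
Sp5: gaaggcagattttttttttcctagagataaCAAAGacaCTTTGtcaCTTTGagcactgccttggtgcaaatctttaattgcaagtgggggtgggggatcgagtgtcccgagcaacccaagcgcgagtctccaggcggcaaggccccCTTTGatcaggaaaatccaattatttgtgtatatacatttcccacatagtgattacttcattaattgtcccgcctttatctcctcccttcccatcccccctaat
Axin2: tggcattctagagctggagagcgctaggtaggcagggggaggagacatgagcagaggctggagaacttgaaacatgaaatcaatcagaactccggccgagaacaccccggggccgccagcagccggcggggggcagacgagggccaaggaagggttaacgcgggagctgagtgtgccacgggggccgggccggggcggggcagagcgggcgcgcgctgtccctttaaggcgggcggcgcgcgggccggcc
Lef1: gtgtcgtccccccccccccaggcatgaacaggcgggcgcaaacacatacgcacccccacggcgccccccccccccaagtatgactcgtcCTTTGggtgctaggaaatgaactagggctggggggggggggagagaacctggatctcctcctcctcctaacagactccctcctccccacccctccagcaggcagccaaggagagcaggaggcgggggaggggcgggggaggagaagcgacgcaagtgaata
The *Sp5* window held 4 matches, at 220, 212, 204 and 104 bases before the start, and the last of them read CTTTGAT. At least 4 matches were found in 0.773% of the 32851 windows of all genes, and CTTTGAT in 3.21%. The *Axin2* window held 0 matches and the *Lef1* window 1, at 161 bases before the start. *Lef1* has 4 annotated starts, and their windows held between 1 and 3 matches. Of the 13 windows of these genes, 8 held CTTTG, against 48.6% of all windows. Those windows belonged to 4 of the 8 genes (*Sp5*, *Lef1*, *Tcf7l1* and *Tcf7l2*), and 4 of them to *Lef1*. The *Lef1* window shown overlaps that of the next start, where the same match lies at 187 bases, so that it is counted in both. A match here is a description of the letters and not a site of binding.

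Library sizes were 7663520 and 10225378 counts for the wild-type replicates and 9545119 and 10337082 for the *Zfp57*-/- replicates. *Zfp57* itself, counted over the whole gene, had 392 and 249 counts in the wild-type libraries against 158 and 144 (log2 fold change -1.19, standard error 0.32, edgeR adjusted p = 0.0224). Cell type markers moved with the genotype. All 8 markers of pluripotent cells were higher in *Zfp57*-/- cells, with a summed level of 1491 and 1304 CPM (counts scaled to library size) against 4.58 and 8.20 in wild-type replicates. *Nanog* had 0 counts in both wild-type replicates. Of 8 neuronal markers 7 were lower, with a sum of 1571 and 1945 CPM against 205 and 161. Of 8 markers of neural progenitors 5 were lower and 3 were not called, with 1382 and 1627 CPM against 961 and 954. Most of that sum was *Vim*, which was not called (782 and 964 against 738 and 732 CPM), while the 5 lower genes had log2 fold changes from -5.16 (*Hes5*) to -0.91 (*Nes*). *Emx2*, among those not called, had at most 24 counts in any library. Of 7 tested markers of mesoderm and endothelium 5 were higher and 1, *Kdr*, was lower. The sum of that list was 106 and 145 CPM against 250.4 and 303. Of 8 endoderm markers 1 was higher and 7 were not called. Their sum was 2998 and 4234 CPM against 4957 and 6959, most of it from *Lama1*, which was not called. Of 5 neural crest markers 3 were lower and 1 was higher, with a sum of 87.6 and 122 CPM against 15.1 and 18.6. The part of these shifts in the values given here was not tested, and in such bulk libraries fewer cells of a type and less RNA per cell cannot be told apart.

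The question of the main comparison was how RNA levels differed between *Zfp57*-/- and wild-type day 12 cells. Of the 10 genes, 4 were lower in *Zfp57*-/- cells (*Axin2*, *Nkd1*, *Sfrp2* and *Wnt7b*), 3 were higher (*Lef1*, *Tcf7l1* and *Sfrp1*, none of them with *Actb* as the scale) and 3 were not called (*Tcf7*, *Tcf7l2* and *Sp5*) at an adjusted p of 0.05. Among all 19995 genes tested, 27.6% were called, 14.6% as lower and 13% as higher. The lower calls of *Axin2*, *Nkd1* and *Sfrp2* were changes of 2.92-fold to 10.2-fold, while the other 4 called genes changed by less than 1.9-fold. In 9 of the 10 genes the CPM values of the 2 genotypes did not overlap, 5 higher and 4 lower in *Zfp57*-/- cells, which was also the case for 66.3% of all genes tested (33.7% higher and 32.6% lower).

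**Figure D1:**
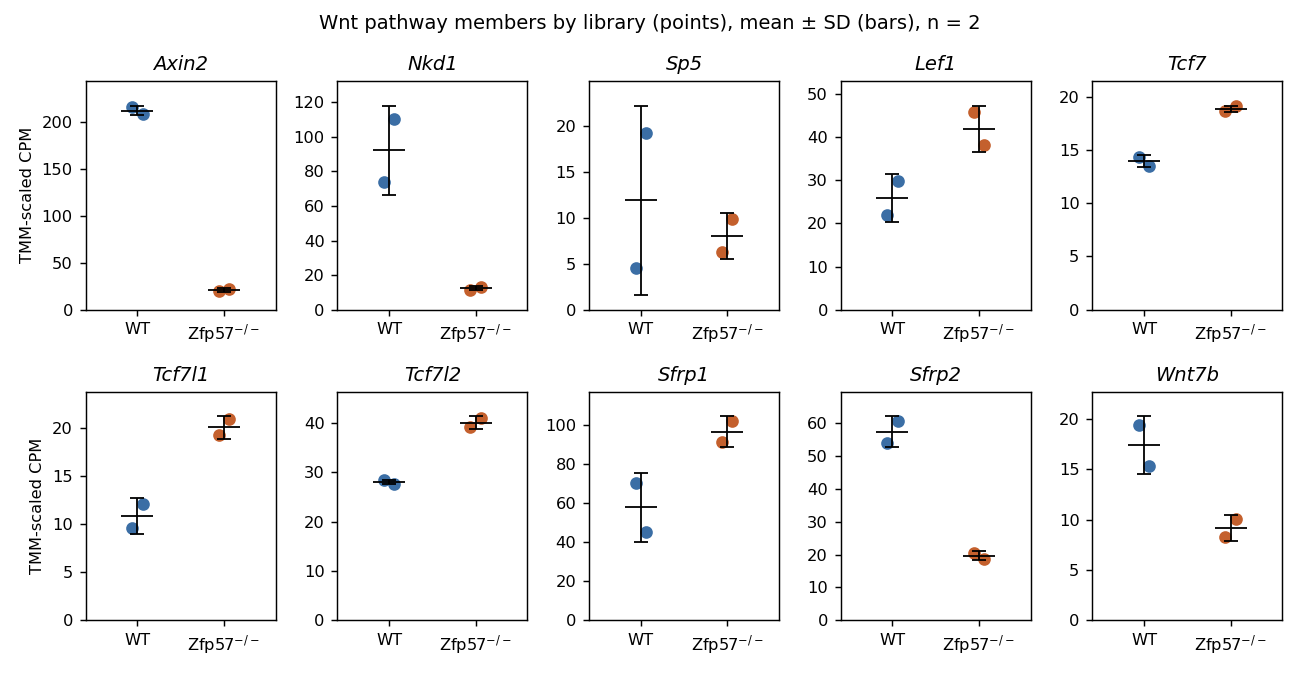
TMM-scaled CPM (linear axis from 0) of the 10 Wnt pathway genes in each wild-type (WT) and *Zfp57*-/- library. Points are libraries and bars are the mean ± SD of 2 replicates. *Axin2* stood at 216 and 208 CPM in wild-type and at 19.5 and 22.2 in *Zfp57*-/- libraries, and *Sp5* is the gene whose genotypes overlap.

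Among the target genes, *Axin2*, which encodes a scaffold of the destruction complex, showed the largest change. *Axin2* (ENSMUSG00000000142.15, GRCm38 chromosome 11 from 108920349 to 108950783, plus strand) was covered by 1742 and 2181 counts in wild-type libraries and by 182 and 217 in *Zfp57*-/- libraries. Its level was 212 ± 5.30 CPM (SD, n = 2) in wild-type and 20.8 ± 1.87 CPM (SD, n = 2) in *Zfp57*-/- cells. The replicates of each genotype lay close together and far from the other genotype. *Axin2* was therefore 10.2-fold lower (log2 fold change -3.34, standard error 0.21, edgeR adjusted p = 5.35e-06).

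*Nkd1*, an inhibitor that acts on Dishevelled (ENSMUSG00000031661.12, chromosome 8 from 88521354 to 88594884, plus strand), fell from 596 and 1159 counts to 108 and 131. This was 73.8 and 111 CPM against 11.6 and 13.4 CPM. The wild-type replicates differed from each other, but the lower of them was still well above both *Zfp57*-/- replicates. *Nkd1* was 7.38-fold lower (log2 fold change -2.88, standard error 0.25, edgeR adjusted p = 3.86e-05).

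*Sp5*, a zinc finger factor and direct Wnt target (ENSMUSG00000075304.2, chromosome 2 from 70474923 to 70477729, plus strand), was the target whose genotypes overlapped. Its counts were 37 and 201 in wild-type against 58 and 96, or 4.58 and 19.2 CPM against 6.22 and 9.81 CPM. Both *Zfp57*-/- values lay between the wild-type ones, which differed from each other more than the genotypes did. The log2 fold change was -0.58 with a 95% confidence interval from -1.81 to 0.64 (edgeR adjusted p = 0.471). It depended on which wild-type library was kept, being -1.28 without wild-type replicate 1 (edgeR adjusted p = 3.35e-06) and 0.81 without wild-type replicate 2 (adjusted p = 0.0547).

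The 4 TCF/LEF factors, which bind the target genes and recruit β-catenin, had higher values in both *Zfp57*-/- replicates than in both wild-type replicates, of which 2 passed the threshold (with *Actb* as the scale none passed, and *Tcf7* and *Tcf7l2* changed sign). *Tcf7l1* (ENSMUSG00000055799.13, chromosome 6 from 72626378 to 72789254, minus strand), known mainly as a repressor in ESCs, rose from 77 and 127 counts to 179 and 204. Its level went from 9.53 and 12.1 CPM to 19.2 and 20.8 CPM. This was 1.84-fold higher (log2 fold change 0.88, standard error 0.26, edgeR adjusted p = 0.0302).

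*Lef1* (ENSMUSG00000027985.14, chromosome 3 from 131110471 to 131224356, plus strand), which acts mainly as an activator and is also a target gene, rose from 177 and 312 counts to 427 and 374. This was 21.9 and 29.8 CPM against 45.8 and 38.2 CPM. The replicates of each genotype were spread, and the groups did not overlap. *Lef1* was 1.62-fold higher (log2 fold change 0.70, standard error 0.23, edgeR adjusted p = 0.0468).

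*Tcf7l2* (ENSMUSG00000024985.18, chromosome 19 from 55741810 to 55933654, plus strand) had 229 and 290 counts in wild-type against 365 and 401 counts, or 28.3 and 27.7 CPM against 39.2 and 41.0 CPM. Its log2 fold change of 0.52 (95% confidence interval 0.08 to 0.96) did not pass the threshold (edgeR adjusted p = 0.0786). *Tcf7* (ENSMUSG00000000782.15, chromosome 11 from 52252371 to 52283014, minus strand) had 116 and 142 against 174 and 187 counts, or 14.4 and 13.5 CPM against 18.7 and 19.1 CPM. Its log2 fold change of 0.44 (95% confidence interval -0.10 to 0.97) did not pass either (edgeR adjusted p = 0.204). For both factors the replicates were close and the genotypes did not overlap.

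To compare the factors with each other, CPM were divided by the exon length in the table. In both genotypes *Tcf7* had the highest level per kilobase (kb) of exon among the 4 factors, 5.31 ± 0.22 CPM per kb in wild-type and 7.19 ± 0.12 CPM per kb in *Zfp57*-/- cells (SD, n = 2). The wild-type levels of *Tcf7l2*, *Lef1* and *Tcf7l1* were 3.20, 2.94 and 2.76 CPM per kb, and the replicates of *Lef1* overlapped those of each of the other two. The summed level of the 4 factors was 13.6 and 14.8 CPM per kb in wild-type and 21.7 and 21.6 CPM per kb in *Zfp57*-/- replicates, a ratio of 1.52 on the TMM scale. Scaled to *Actb*, the 4 factors lay between -0.25 and 0.26 in log2 fold change, none of them called. With 2 replicates a genotype, an exact permutation test cannot go below p = 0.33, so no test was made of this sum.

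The share of each factor in this sum does not depend on the scale of the library. *Tcf7* made up 40.1% and 34.9% of the sum in wild-type libraries, against 32.8% and 33.7%. *Tcf7l1* made up 17.8% and 20.9% against 22.6% and 24.6%. The genotypes did not overlap for these 2 factors, but the gap between the nearest libraries was smaller than the spread between the wild-type replicates. The shares of *Lef1* (18.3% and 22.9% against 24.0% and 20.1%) and *Tcf7l2* (23.8% and 21.4% against 20.7% and 21.7%) overlapped. Without division by length the order of the factors changed, *Tcf7l2* and *Lef1* holding the largest shares of counts and *Tcf7* 17.8% in wild-type and 15.6% in *Zfp57*-/- cells.

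**Figure D2:**
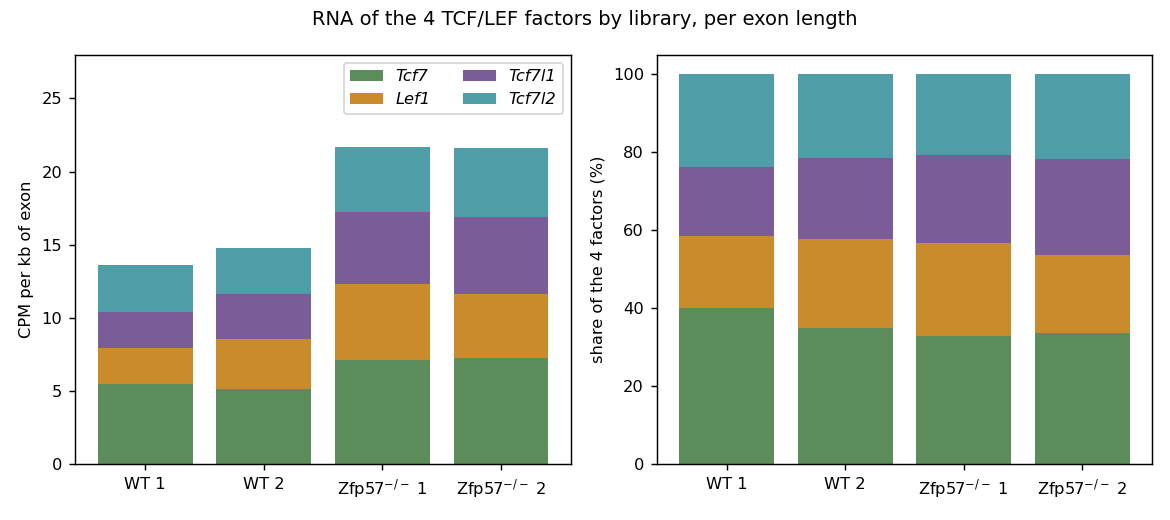
Levels of the 4 TCF/LEF factors in each library as stacked TMM-scaled CPM per kb of exon (left) and as shares of their sum in percent (right). The bars of the *Zfp57*-/- libraries reach 21.7 and 21.6 CPM per kb and those of the wild-type libraries 13.6 and 14.8 (with *Actb* as the scale, *Tcf7* and *Tcf7l2* changed sign). *Tcf7* holds 32.8% to 40.1% of the sum in each library.

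The 2 secreted Frizzled-related proteins, which bind Wnt ligands outside the cell, changed in opposite directions on the TMM scale, while with *Actb* as the scale *Sfrp1* lay at -0.045. *Sfrp2* (ENSMUSG00000027996.13, chromosome 3 from 83766321 to 83774316, plus strand) fell from 437 and 637 counts to 192 and 183. Its level was 54.1 and 60.8 CPM against 20.6 and 18.7 CPM, with close replicates in both genotypes. *Sfrp2* was 2.92-fold lower (log2 fold change -1.55, standard error 0.20, edgeR adjusted p = 0.000473).

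*Sfrp1* (ENSMUSG00000031548.7, chromosome 8 from 23411502 to 23449632, plus strand) rose from 569 and 474 counts to 849 and 1000, or from 70.4 and 45.2 CPM to 91.1 and 102 CPM. It was 1.67-fold higher (log2 fold change 0.74, standard error 0.24, edgeR adjusted p = 0.0414). Per kb of exon, the level of *Sfrp2* exceeded that of *Sfrp1* in wild-type cells (26.7 ± 2.20 against 13.2 ± 4.07 CPM per kb, SD, n = 2), and the order was inverse in *Zfp57*-/- cells (9.12 ± 0.63 against 22.1 ± 1.79 CPM per kb, SD, n = 2). The replicates of the 2 genes did not overlap in either genotype.

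*Wnt7b*, the ligand of the set and one made by neural progenitors and neurons (ENSMUSG00000022382.15, chromosome 15 from 85535437 to 85582473, minus strand), fell from 157 and 161 counts to 77 and 99. This was 19.4 and 15.4 CPM against 8.26 and 10.1 CPM. *Wnt7b* was 1.89-fold lower (log2 fold change -0.92, standard error 0.28, edgeR adjusted p = 0.0349).

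The 4 calls of less than 1.9-fold, of *Lef1*, *Tcf7l1*, *Sfrp1* and *Wnt7b*, were each lost when either *Zfp57*-/- library was left out, with adjusted p from 0.128 to 0.405, and DESeq2 kept that of *Sfrp1* alone (adjusted p = 0.0301). When the *Actb* count, itself 14634 and 37665 in the wild-type replicates, set the scale, the median of all genes moved from -0.01 to -0.68, no factor or *Sfrp1* was called as higher, and *Sfrp1*, *Tcf7* and *Tcf7l2* changed sign (relative to that median, *Lef1* lay at 0.78, *Tcf7l1* at 0.94, *Sfrp1* at 0.63, *Tcf7* at 0.43 and *Tcf7l2* at 0.51).

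Set side by side per kb of exon, the order of the 10 genes differed between the genotypes. In wild-type cells, *Axin2* was highest at 38.5 ± 0.96 CPM per kb, followed by *Sfrp2* at 26.7, *Nkd1* at 20.2 and *Sfrp1* at 13.2. *Sp5*, *Tcf7*, *Wnt7b*, *Tcf7l2*, *Lef1* and *Tcf7l1* followed between 5.66 and 2.76 CPM per kb, and in this lower part neighbours overlapped between replicates except *Tcf7* and *Wnt7b*. In *Zfp57*-/- cells, *Sfrp1* was highest at 22.1 CPM per kb, followed by *Sfrp2* at 9.12 and *Tcf7* at 7.19. *Tcf7l1*, *Lef1*, *Tcf7l2*, *Sp5* and *Axin2* lay between 5.10 and 3.79 CPM per kb, each overlapping its neighbours. *Nkd1* at 2.74 and *Wnt7b* at 1.88 CPM per kb were lowest. *Axin2* thus had a level per kb above that of each TCF/LEF factor in wild-type cells, and below that of each of them in both *Zfp57*-/- replicates.

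The other genes of the pathway were taken from lists by role, 91 genes in all outside the 10. Of the 88 that were tested, 30 were lower in *Zfp57*-/- cells, 11 were higher and 47 were not called, and their median log2 fold change was -0.57, against -0.01 for all genes. The 11 higher calls lay near the share over all genes tested, of which 13% were higher and 14.6% lower. The same shares apply to the counts by role that follow. Among the 18 tested Wnt ligands, *Wnt7b* included, 6 were lower and 1, *Wnt8a*, was higher, with a median of -1.01. *Wnt1*, made at the dorsal midline, fell from 341 and 375 counts to 0 and 1, at least 124-fold lower against 3 counts in a library. *Wnt8b*, made by the cortical hem, had 82 and 71 against 2 and 2 counts, at least 26.9-fold lower on the same basis. *Wnt3a*, another hem ligand, had 200 and 189 against 2 and 6 counts (log2 fold change -5.63, edgeR adjusted p = 2.76e-05). The log2 fold change of *Wnt7b*, at -0.92, was nearer to 0 than those of these 3 ligands. *Wls*, which carries Wnt proteins to the cell surface, was the called gene of 3 in ligand processing, with 315 and 271 against 116 and 128 CPM (log2 fold change -1.26, edgeR adjusted p = 0.00116).

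**Figure D3:**
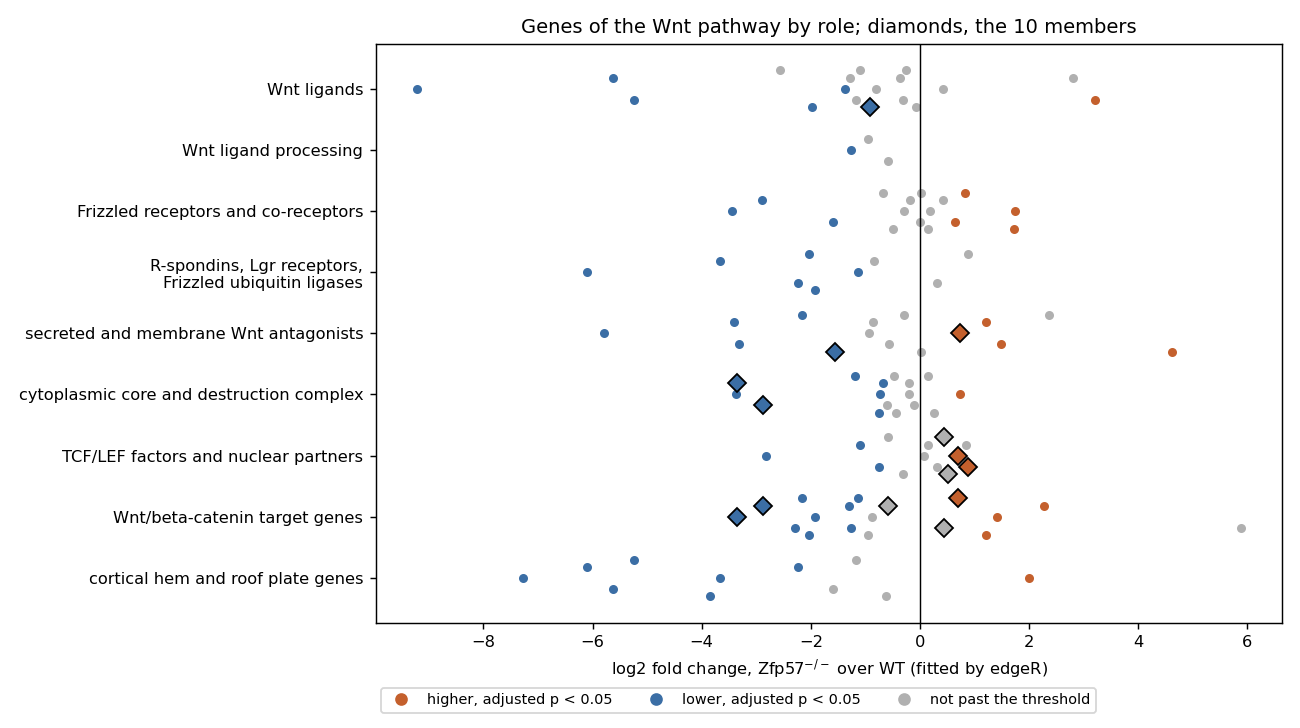
Log2 fold changes of *Zfp57*-/- over wild-type cells for the tested genes of the Wnt pathway, 1 row per role, with genes in several roles drawn in each. Colours give the call at an adjusted p of 0.05, and diamonds are the 10 genes. The R-spondin and hem rows hold 6 and 7 lower calls, and the Frizzled row 4 higher and 3 lower.

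The Frizzled receptors and co-receptors were called in both directions, with 4 higher (*Fzd4*, *Fzd5*, *Fzd6* and *Fzd7*), 3 lower (*Fzd3*, *Fzd9* and *Fzd10*) and 9 not called of 16, and a median of 0.01. Scaled to *Actb*, 0 were called as higher, *Fzd5* included among those not called, and 2 were higher with DESeq2, at a threshold of 0.01 or without either *Zfp57*-/- library. *Fzd5* rose from 77.7 and 76.8 to 246 and 273 CPM (log2 fold change 1.75, edgeR adjusted p = 0.000146). *Fzd3*, known for its role in axon growth, went from 794 and 735 to 104 and 103 CPM (-2.89, edgeR adjusted p = 9.85e-06), and *Fzd10* from 124 and 172 to 14.1 and 13.3 CPM (-3.44, edgeR adjusted p = 1.01e-05). Of the 9 R-spondins, Lgr receptors and Frizzled ubiquitin ligases, which set how long Frizzled stays at the surface, 6 were lower and 0 higher, with a median of -1.92. *Rspo2* fell from 464 and 322 counts to 8 and 4 (-6.10, edgeR adjusted p = 1.64e-05), *Rspo1* 254 and 301 against 22 and 23 (-3.67) and *Rspo3* 542 and 526 against 113 and 124 (-2.24). The ubiquitin ligases *Znrf3* and *Rnf43*, which like *Axin2* and *Nkd1* are feedback inhibitors, and the receptor *Lgr5* made up the rest.

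Among the 15 tested antagonists, 5 were lower and 4 higher, *Sfrp2* and *Sfrp1* included, but 1 was higher when scaled to *Actb*, at a threshold of 0.01 or without either *Zfp57*-/- library. The remaining lower ones were *Sost*, *Sostdc1*, *Apcdd1* and *Draxin*, and the remaining higher ones *Sfrp5*, *Dkk1* and *Wif1*. *Draxin*, an antagonist that also guides axons, went from 45.9 and 42.2 to 1.07 and 0.511 CPM (-5.78, edgeR adjusted p = 5.06e-06), and *Apcdd1*, a membrane inhibitor and target gene, from 81.8 and 94.4 to 20.6 and 18.6 CPM (-2.17, edgeR adjusted p = 5.93e-05). *Sost* went from 57 and 46 counts to 5 and 5 (-3.41, edgeR adjusted p = 0.00242).

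In the cytoplasmic core, 7 of 16 genes were lower (*Apc*, *Apc2*, *Axin2*, *Gsk3b*, *Csnk1e*, *Dvl3* and *Nkd1*) and 1, *Dvl2*, was higher. At a threshold of 0.01, 4 of the lower calls remained, and those of *Apc*, *Csnk1e* and *Dvl3* were lost. *Ctnnb1*, which encodes β-catenin, was not called, with 869 and 1177 CPM in wild-type against 901 and 992 CPM (-0.11, edgeR adjusted p = 0.734), and neither was *Axin1*, the constitutive relative of *Axin2*, with 70.7 and 78.2 against 77.4 and 88.7 CPM (0.16, edgeR adjusted p = 0.580). These 2 were named after their values were seen. *Apc2*, the neural relative of *Apc*, went from 132 and 114 to 10.8 and 12.97 CPM (-3.36, edgeR adjusted p = 7.37e-06), and *Gsk3b* from 257 and 273 to 108 and 123 CPM (-1.19, edgeR adjusted p = 0.00142). *Dvl2* rose from 56.6 and 54.0 to 98.04 and 87.02 CPM (0.74, edgeR adjusted p = 0.0162), a call that was lost with *Actb* as the scale, at a threshold of 0.01 and without either *Zfp57*-/- library. *Axin2* and *Nkd1* thus shared a log2 fold change near -3 with *Apc2* alone of this list.

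Among the 13 TCF/LEF factors and nuclear partners, *Lef1* and *Tcf7l1* were the 2 higher genes, and 3 partners were lower. *Pygo1*, a reader of histone methylation that binds Bcl9, went from 53.2 and 62.2 to 7.94 and 8.38 CPM (-2.82, edgeR adjusted p = 2.04e-05), *Bcl9*, the adaptor of β-catenin, from 56.4 and 60.0 to 25.4 and 28.7 CPM (-1.10, edgeR adjusted p = 0.00278) and the co-repressor *Tle1* from 135 and 106 to 71.1 and 71.3 CPM (-0.76, edgeR adjusted p = 0.0193).

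Of 18 tested target genes, 9 were lower, 4 were higher and 5 were not called, with a median of -1.05, and 5 of the 18 are *Axin2*, *Nkd1*, *Sp5*, *Lef1* and *Tcf7*. The lower ones beside *Axin2* and *Nkd1* were *Sp8*, *Lgr5*, *Znrf3*, *Rnf43*, *Apcdd1*, *Tnfrsf19* and *Ccnd1*, and the higher ones beside *Lef1* were *Myc*, *T* and *Dkk1*. *Tnfrsf19* went from 121 and 152 to 27.2 and 28.6 CPM (-2.29, edgeR adjusted p = 4.75e-05). *T*, the mesoderm factor Brachyury, rose from 14.5 and 32.9 to 106 and 124 CPM (2.27, edgeR adjusted p = 0.000852). *Axin2* had the lowest log2 fold change of these 18 genes, and *Nkd1* the next. Of 11 genes of the cortical hem and roof plate, 7 were lower and 1, *Bmp4*, was higher, with a median of -3.67. Among the lower ones, *Wnt3a*, *Wnt8b*, *Rspo1*, *Rspo2* and *Rspo3* were already counted above by role, and *Gdf7* and *Msx1* were not. *Wnt2b*, *Lmx1a* and *Ttr* were not called. *Msx1*, a roof plate factor, fell from 311 and 447 counts to 20 and 34 (-3.84, edgeR adjusted p = 1.73e-05).

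In the allele-specific table, the allelic ratio was taken as JF1/(JF1 + B6). A ratio of 1 is RNA from the maternal JF1 allele only, and 0 from the paternal B6 allele only. The ratio asks whether the RNA of a gene came equally from both alleles in each genotype. In both lines JF1 was maternal and B6 paternal, so that strain and parent of origin cannot be told apart. Of the 10 genes, 9 were tested, and *Nkd1* had 0 allelic counts in every library. In wild-type cells 2 of the 9 had a bias past an adjusted p of 0.05, *Lef1* toward B6 and *Sfrp1* toward JF1, where 23.6% of the 10977 genes tested did (9.26% toward B6 and 14.3% toward JF1). In *Zfp57*-/- cells 2 had one, *Sfrp1* and *Wnt7b*, both toward B6, against 21.8% of all (12.5% toward B6 and 9.36% toward JF1). The ratio differed between the genotypes for 3 of the 9, *Lef1* toward JF1 and *Sfrp1* and *Wnt7b* toward B6 in *Zfp57*-/- cells, against 14.5% of all (4.18% toward JF1 and 10.3% toward B6). DESeq2 with the same model called none of the 9 in any of these comparisons, and the same was true of a model with a replicate block in place of the library terms (adjusted p for the difference of 0.0925 to 0.247 over these 3 genes and both fits). At an unadjusted p under 0.05, the difference was passed by *Lef1*, *Sfrp1* and *Wnt7b* in both of these fits, the wild-type bias by *Lef1* alone in both, and the bias in *Zfp57*-/- cells by 0 genes with DESeq2 and by 2, *Tcf7l1* and *Wnt7b*, with the block.

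**Figure D4:**
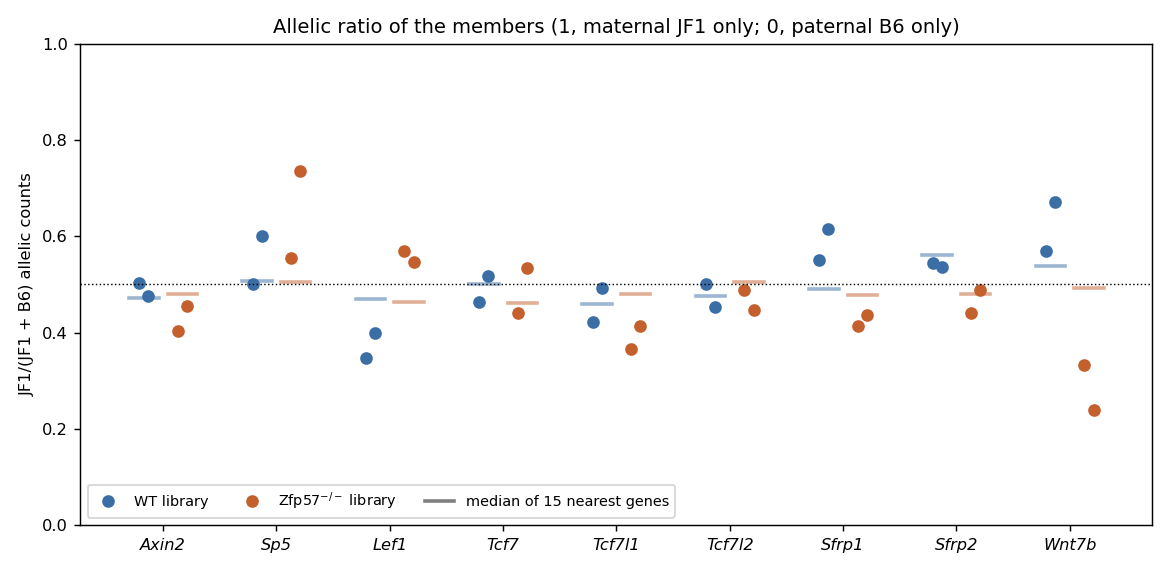
Allelic ratio JF1/(JF1 + B6) of the 9 genes with allelic counts in each wild-type (WT) and *Zfp57*-/- library (points), with the median ratio of the 15 nearest genes in each genotype (short lines). The *Lef1* points move from 0.347 and 0.398 to 0.569 and 0.547, and those of *Sfrp1* and *Wnt7b* move toward B6.

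For *Lef1*, 43 and 86 JF1 counts stood beside 81 and 130 B6 counts in wild-type, and 149 and 128 JF1 beside 113 and 106 B6 counts in *Zfp57*-/- libraries. The ratio was 0.347 and 0.398 in wild-type against 0.569 and 0.547, on either side of 0.5. The difference in log2 JF1/B6 was 1.06 (standard error 0.26, edgeR adjusted p = 0.000934). In CPM, the JF1 allele stood at 6.76 in wild-type and 14.5 in *Zfp57*-/- cells and the B6 allele at 11.2 and 11.5. The rise among allelic counts thus lay with JF1. Allelic counts were 69.5% of the bulk counts of *Lef1* in wild-type and 61.9% in *Zfp57*-/- cells. The allele of the remaining counts is not known. The median ratio of the 15 nearest genes was 0.469 and 0.464.

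For *Sfrp1*, the ratio was 0.550 and 0.615 in wild-type against 0.414 and 0.437, over 418 allelic counts in wild-type libraries and 871 in *Zfp57*-/- libraries. The difference in log2 JF1/B6 was -0.91 (standard error 0.21, edgeR adjusted p = 0.000543). The B6 allele stood at 9.74 CPM in wild-type and 26.2 in *Zfp57*-/- cells, and the JF1 allele at 13.3 and 19.4 CPM. Both alleles thus had higher values, the B6 allele more so, while the 15 nearest genes had a median ratio of 0.491 and 0.478. Without wild-type replicate 2 the difference was -0.72 and was no longer called (adjusted p = 0.0856).

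For *Wnt7b*, the ratio was 0.569 and 0.672 in wild-type against 0.33 and 0.238. The difference in log2 JF1/B6 was -2.12 (standard error 0.58, edgeR adjusted p = 0.00395), but rested on 60 allelic counts in *Zfp57*-/- cells. The JF1 allele stood at 4.59 CPM in wild-type and 0.832 in *Zfp57*-/- cells, and the B6 allele at 2.92 and 2.28 CPM. The fall among allelic counts thus lay mostly with JF1. Allelic counts were 42.8% of the bulk counts of *Wnt7b* in wild-type and 34.1% in *Zfp57*-/- cells. The allele of the remaining counts is not known. The median ratio of the 15 nearest genes was 0.538 and 0.494, and so moved the same way by less. The difference was not called without wild-type replicate 2 (-1.81, adjusted p = 0.139) or without *Zfp57*-/- replicate 2 (-1.68, adjusted p = 0.144).

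No difference between genotypes was called for the other 6 genes. *Axin2* had 434 and 515 JF1 counts beside 429 and 566 B6 counts in wild-type, and 37 and 50 beside 55 and 60 in *Zfp57*-/- replicates. Its ratio was 0.503 and 0.476 against 0.402 and 0.455 (difference in log2 JF1/B6 -0.34, standard error 0.23, edgeR adjusted p = 0.453). In CPM, both *Axin2* alleles were lower in *Zfp57*-/- cells, the JF1 allele at 51.4 and 4.54 and the B6 allele at 53.5 and 6.01. *Sfrp2* likewise had lower values on both alleles, with 22.9 and 6.60 CPM for JF1 and 19.4 and 7.66 CPM for B6, and a ratio of 0.545 and 0.537 against 0.441 and 0.488 (adjusted p = 0.280 for the difference).

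The ratios of *Tcf7* (0.463 and 0.517 against 0.442 and 0.535) and *Tcf7l2* (0.5 and 0.453 against 0.489 and 0.446) overlapped between the genotypes. *Tcf7l1* had 0.421 and 0.493 against 0.366 and 0.414 (edgeR adjusted p = 0.661 for the difference). *Sp5* had 0.5 and 0.600 against 0.556 and 0.735, over 86 and 52 allelic counts, and its standard error of 0.67 for the difference in log2 JF1/B6 was larger than the difference of 0.57. At this depth, a difference of the size seen for *Lef1* would not have been distinguishable for *Sp5*.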

How the data were processed

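RNA-seq of 2 wild-type and 2 *Zfp57*-/- day 12-JB1 cultures was used. Per the labels and methods, the authors trimmed reads (Trimmomatic 0.36), aligned them uniquely to GRCm38 (STAR 2.5.4a) and gave fragment counts per GENCODE vM20 gene on the matching strand (featureCounts, Subread 1.6.0). In the second deposited table of counts, reads aligned to a genome masked at strain SNPs were split by SNPsplit into JF1 and B6. Both tables hold raw counts without normalization.

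Here, genes with more than 8 counts over the 4 libraries were compared by edgeR's (4.0.16, R 4.3.3) robust quasi-likelihood test with TMM and Benjamini-Hochberg adjustment over all genes at 0.05. CPM are on the TMM scale. Alleles were compared in an edgeR model of the 8 allele columns, with library terms and 1 allele effect for each genotype, over autosomal genes that reached 10 normalized allelic counts in each wild-type library (2837013 to 3826604 allelic counts per library). Alternatives were DESeq2 1.42.0, other scalings, filters and thresholds, a replicate block and each library left out. The tests were also run on simulated counts. There the replicates of both genotypes varied alike, unlike those here, so that the run does not vouch for the calls. Figures were drawn with matplotlib 3.10.9.

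The 10 genes and the lists were chosen with earlier results of these data known. Beside the 10, up to 3 genes per pathway list with the smallest adjusted p past 0.05 are named with values, as are *Zfp57* and *Actb*. Other list members are named to account for calls, and marker lists are given by counts and sums.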

Additional observations from a re-analysis of the deposited data

Results flagged for a closer look

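Of the 9 genes with allelic counts, 3 were set apart because the allelic balance differed between *Zfp57*-/- and wild-type cells by the test of the difference itself. The difference in log2 JF1/B6 was 1.06 for *Lef1* (edgeR adjusted p = 0.000934), with both *Zfp57*-/- replicates above both wild-type replicates. It was -0.91 for *Sfrp1* (adjusted p = 0.000543) and -2.12 for *Wnt7b* (adjusted p = 0.00395), with both *Zfp57*-/- replicates below both wild-type replicates. With DESeq2 the adjusted p were 0.159, 0.132 and 0.247, and with a replicate block 0.0925, 0.122 and 0.127, in the same order, at differences of nearly the same size. The lack of overlap between replicates was not particular to these genes. The ratios of *Axin2*, *Sfrp2* and *Tcf7l1* did not overlap between the genotypes either, without a called difference. The share of all genes whose ratios did not overlap was not counted, so the lack of overlap adds nothing to the 3 calls.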

How the results depend on the processing

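Of 130 fold changes of the 10 genes under the bulk alternatives, 126 had the same direction and 103 the same direction and call. The number of the 10 called as higher went from 3 to 1 with DESeq2 and to 0 with *Actb* as the scale or a threshold of 0.01, and lay between 0 and 4 with a library left out. The number called as lower lay between 3 and 5 with a library left out. Of the 88 other pathway genes, 11 higher calls became 2 with *Actb* as the scale and 6 at the threshold of 0.01 and lay between 6 and 16 with a library left out, while the 30 lower calls lay between 19 and 43. On the *Actb* scale, 486 higher and 2994 lower genes were called among all genes, against 2607 and 2915, and *Sfrp1*, *Tcf7* and *Tcf7l2* lay at -0.045, -0.25 and -0.17. Over all genes, 5522 calls became 2902 at the threshold of 0.01, 3480 on the *Actb* scale and between 2831 and 9947 with a library left out. The log2 fold change of *Sp5* lay between -1.28 and 0.81 with a library left out. The cause of these shifts was not tested. A library left out leaves 1 replicate in a genotype, which is assumed to vary like the other genotype, and the wild-type replicates differed more (34.8 times counting noise per degree of freedom, against 6.97).

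The replicate number was not taken as a pairing, since the labels name no shared batch. Over 11736 genes, the deviations of libraries with the same number from their group means had a correlation of 0.16. With the replicate block, 6984 genes were called in place of 5522, and no call among the 10 genes changed in bulk.

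For the alleles, the 2 biases called in wild-type became 0 with DESeq2, 0 with the replicate block and 1 with TMM of each allele column, and lay between 0 and 3 with a library left out. The 2 called in *Zfp57*-/- cells became 0 with DESeq2 and with the replicate block and lay between 1 and 2. The 3 differences between genotypes became 0 with DESeq2 and with the replicate block and lay between 1 and 3. Small uncalled allelic values changed sign. With TMM of each allele column, the difference in log2 JF1/B6 was 0.080 for *Tcf7* and 0.076 for *Tcf7l2*. With a library left out, it lay between -0.31 and 0.23 for *Tcf7*, -0.18 and 0.088 for *Tcf7l2* and -0.13 and 1.01 for *Sp5*. The bias itself lay between -0.14 and 0.017 for *Axin2* in wild-type, and for *Tcf7* between -0.21 and 0.0958 in wild-type and, in *Zfp57*-/- cells, between -0.34 and 0.20. From raw counts, the shares of *Tcf7*, *Lef1*, *Tcf7l1* and *Tcf7l2* in wild-type were 17.8%, 32.7%, 13.7% and 35.8%, and in *Zfp57*-/- cells 15.6%, 34.7%, 16.6% and 33.1%.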
